A study of Bos taurus with 8 samples.

Results

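The 35 genes described here drive or mark cell division: 14 copy DNA or supply its building blocks, 17 act in mitosis, and 4 are cyclins and kinases of the G1 phase. They were followed in the mammary gland of lactating dairy cows. Members were chosen by name and taken from the array through the gene name or RefSeq accession of each probe, with 31 genes matched that way and 3 more (TOP2A, MCM2 and GINS2) through another accession or the probe's description. MKI67 was not matched to a probe. Of the 34 genes with a probe, 29 were measured well enough to be tested, among 12690 genes tested in all and 16700 with a named probe.

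The tissue came from 8 healthy Holstein Friesian cows in milk, 4 of high yield (averaging 11097 kg per lactation) and 4 of low yield (averaging 6956 kg), with no other treatment or genotype named in the labels. Pairs 1 and 2 each joined a high-yield and a low-yield cow in lactation II, and pairs 3 and 4 did so in lactation IV. Each pair was hybridised to 2 arrays of 2 colours with the dyes exchanged, so the study compared yield groups within 4 cow pairs on 8 arrays. RNA was taken from a part of the gland and holds all its cell types, so fewer cells of a type and less RNA per cell cannot be told apart.

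Cells that divide pass through G1, copy their DNA in S phase and separate the copies in mitosis. Cyclin D1 with CDK4 and cyclin E with CDK2 move a cell through G1, the MCM2 to MCM7 ring unwinds DNA at the replication fork, and PCNA is the clamp that holds DNA polymerase on the template. Transcripts of the mitotic group (cyclins A and B, CDK1, the Aurora and Polo kinases, the checkpoint kinases BUB1 and TTK) build up late in the cycle, and in a tissue they mark the few cells in division. In the mammary gland, cell number grows during pregnancy and early lactation, and the lactating gland is known for slow cell turnover.

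All ratios below are log2 ratios of the high-yield over the low-yield cow of a pair, so that 0 means equal signal and a negative value means a lower signal in the high-yield cow. A pair's ratio is the mean of its dye-swapped arrays, and errors are the SD over the 4 pairs. Levels of single cows are log2 intensities rebuilt from the ratio and mean brightness of each array, so they are not measured intensities and are never set against the level of another gene. Per channel (1 dye on 1 array), 22027 to 42482 of 43653 probes were well above background. Across probes, the arrays of a pair correlated at 0.753, 0.294, 0.668 and 0.260 in pairs 1 to 4, in that order, where probes are no independent replicates.

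The low-yield cow of pair 1 stood apart in milk protein genes. All 8 of 8 genes on the list of secretory epithelium (the caseins, LALBA, PAEP, GLYCAM1 and ELF5) were at their lowest of the 8 cows there, with a log2 summed level of 15.67 against 19.53 to 22.25 in the other cows. None of these markers was undetected: all 8 were above background in all 16 channels. Luminal keratin and junction genes were at their highest of the 8 cows there in 5 of 7 cases, with a log2 summed level of 16.90 against 15.13 to 16.86. Of all 12690 genes tested, 3377 were at their lowest and 2956 at their highest in that cow. Means of several members that lean on pair 1 are therefore given with and without it.

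The probes that carry the values most discussed below are shown by their first 30 bases of 60, as deposited, 5′ to 3′, with the position of the whole probe on build HGSC Btau_3.1. They are the 3 probes of PCNA, which differ in how they respond to the dye, and the tested probes of 5 of the 6 members with the largest range over the pairs.
PCNA, brightest probe, chr13:47616506-47616565, minus strand: agtcaaatctggtcttgttaactgagtaat
PCNA, second brightest probe, chr13:47615800-47615859, minus strand: ctcactgtatccagtagataaattaccttc
PCNA, dimmest kept probe, chr13:47616054-47616113, minus strand: ttttttagcctagggagccttgtacaggag
MCM4, chr14:19222305-19222364, plus strand: acaatggggttccatgttaacttgtattgc
MCM3, chr23:25206743-25206802, minus strand: agttaagactcatatggaattttgacccaa
MCM6, chr2:64484680-64484739, plus strand: gcttctccgaatactgccgaatctctaacc
TYMS, chr24:36769801-36769860, plus strand: ctaaatctgagcaagctgggtaacacccat
CCND1, chr29:48750339-48750398, plus strand: gtgttttcctttgctctttttcccttccgt
The 3 PCNA probes lie within the same stretch of chromosome 13 without overlapping. Whether a probe lies in a coding or an untranslated part of its gene was not examined here.

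Mitotic transcripts were at the edge of detection in this tissue, while replication and G1 transcripts were mostly well measured. By the brightest probe of each gene, 4 of 16 mitotic genes (25%) were well above background in all 16 channels, against 9 of 14 replication genes (64.3%), 4 of 4 G1 genes (100%) and 10072 of 16700 named genes (60.3%). A gene was tested when 1 of its probes exceeded the background in 6 or more of the 8 channels of either yield group, which 12 mitotic, 13 replication and 4 G1 genes met. BIRC5, an inhibitor of apoptosis that belongs to the chromosomal passenger complex, was above background in 4 channels of high-yield and 5 of low-yield cows. CCNB1, the mitotic cyclin B1, was above it in 5 and 5 channels, and KIF11, a spindle motor, in 3 and 5. The spindle checkpoint kinase TTK was above it in 0 and 2 channels, and CDC6, which loads the MCM ring onto origins, in 1 and 1. These 5 genes were not tested, and no ratio is drawn from them.

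Which of these genes differ between high-yield and low-yield cows was the first comparison. None of the 29 did so with limma (adjusted p 0.795 to 0.992), where 0 of 12690 genes (0%) passed. At an unadjusted p under 0.05 stood 1 member, PCNA, beside 664 of all genes (5.23%). Ratios leaned below 0: the mean was negative for 23 of 29 members (79.3%), beside 5722 of all genes (45.1%). The median over the members was -0.08, against 0.03 over all genes tested. That lean depended on the scaling of the arrays and on the dye. With the arrays centred on their median in place of the intensity-dependent loess, the median of all genes moved to -0.14, 64.1% of all genes had a negative mean, and 19 of 29 members did. On the arrays with the high-yield cow in Cy3 alone, 14 of 29 members and 41.5% of all genes were negative. Without pair 1 the count was 17 of 29 (58.6%), beside 44.7% of all genes. BUB1, CENPF, CCNA2 and TOP2A were tested only through the low-yield cows, which favours a negative sign. All of these but TOP2A had a negative mean. Of the 17 members above background in all 16 channels 12 were negative, beside 46.2% of all genes held to that filter.

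Agreement over all pairs was rare among the members. Below 0 in 4 of 4 pairs were 3 members, PCNA, NUSAP1 and PLK1, or 10.3%, beside 970 of all genes (7.64%). Above 0 in 4 of 4 pairs were 0 members, beside 1221 of all genes (9.62%).

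**Figure D1:**
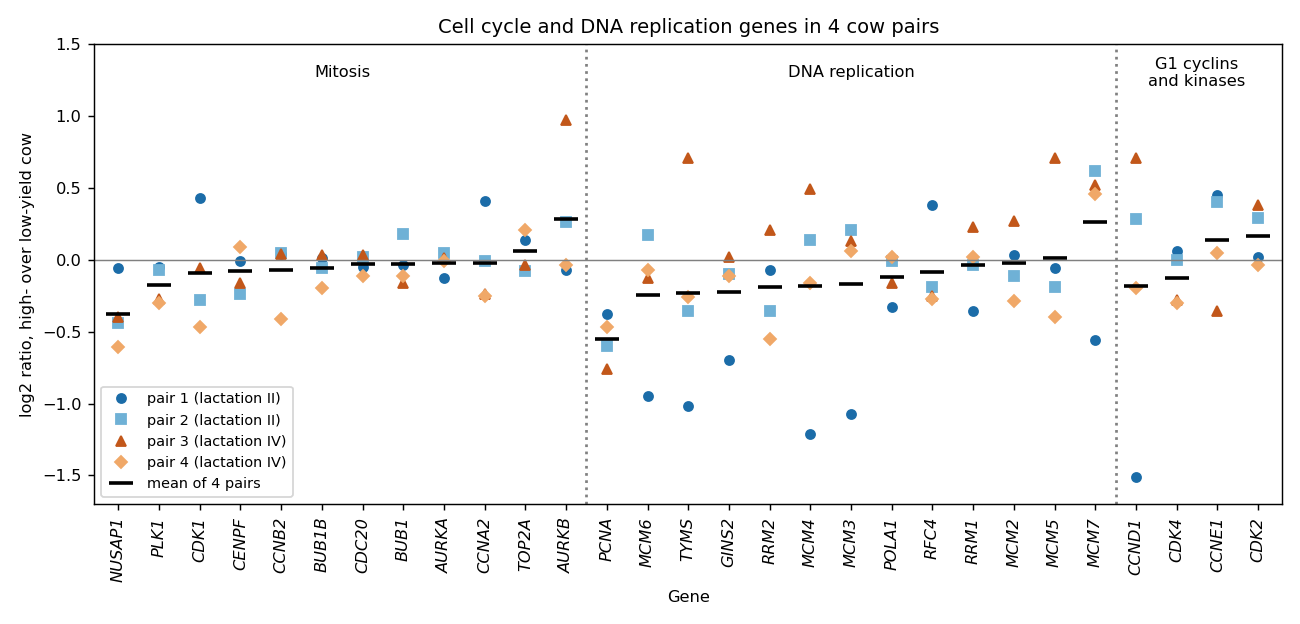
Log2 ratio of the high-yield over the low-yield cow (vertical axis) for the 29 tested genes (horizontal axis), grouped by role and ordered by mean. Each symbol is 1 cow pair, blue for lactation II and orange for lactation IV, and the black bar is the mean of 4 pairs. Pair 1 lies far below the other pairs for MCM3, MCM4, MCM6, TYMS and CCND1, and PCNA and NUSAP1 lie below 0 in each pair.

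The replication genes had a median ratio of -0.17, with 11 of 13 below 0 on average. Their medians by pair were -0.38, -0.10, 0.21 and -0.16 for pairs 1 to 4, so pair 3 ran the other way. Without pair 1 the median was -0.01 and 7 of 13 were below 0. Their values scattered more between pairs than those of the mitotic genes: the median range over the 4 pairs was 0.76 for replication genes, 0.34 for mitotic genes and 0.92 for all genes tested. No test was made of that difference, and mitotic genes lay closer to background, for which the ranges were not adjusted.

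PCNA had the lowest mean ratio of the 29 members. It stood at -0.38, -0.60, -0.76 and -0.47 in pairs 1 to 4, a mean of -0.55 ± 0.16 (SD, n = 4 pairs), or a 1.47-fold higher signal in low-yield cows. With limma it did not pass (adjusted p = 0.795). Rebuilt levels were 10.42, 10.05, 9.88 and 10.40 in high-yield cows, in the order of the pairs, and 10.81, 10.64, 10.64 and 10.88 in low-yield cows. By this probe, its brightest, the groups did not overlap. PCNA was the 1 member for which every high-yield cow was below every low-yield cow, as was the case for 243 of all genes (1.91%). The opposite order held for 0 members, beside 155 of all genes (1.22%). In the dimmer kept PCNA probes the groups overlapped. By the second brightest, the high-yield cow of pair 1 (7.38) was above the low-yield cow of pair 2 (7.37). By the dimmest, the high-yield cow of pair 2 (7.29) was above the low-yield cow of pair 1 (7.11).

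The PCNA ratio differed strongly between the dye orientations. With the high-yield cow in Cy5, the brightest probe read -1.18, -1.02, -1.49 and -1.18 in pairs 1 to 4, a mean of -1.22 ± 0.20 (SD, n = 4 arrays). With the dyes exchanged it read 0.41, -0.17, -0.03 and 0.23, a mean of 0.11 ± 0.26. The part that follows the dye, the gap between these means divided by 2, was 0.66, larger than that of 97.1% of all genes tested. A dye part cancels in the mean of a pair. The second brightest probe gave pair ratios of -0.12, -0.12, -0.51 and -0.18 (mean -0.23 ± 0.19), with a dye part of 0.14. The dimmest gave -0.03, -0.17, -0.53 and -0.19 (mean -0.23 ± 0.21), with a dye part of 0.01. All 3 probes were thus below 0 in 4 of 4 pairs, and the probes with a small dye part gave a ratio nearer 0 than the brightest one. Averaging the kept probes of each gene put PCNA at -0.34 and the saddle-point background fit at -0.32, while median centring put it at -0.88. The authors' deposited values put it at -0.31, a size that is not comparable, since 2 of their columns, array 1 of pair 2 and array 1 of pair 3, are strongly shrunken. On those arrays PCNA read -1.02 and -1.49 here.

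**Figure D2:**
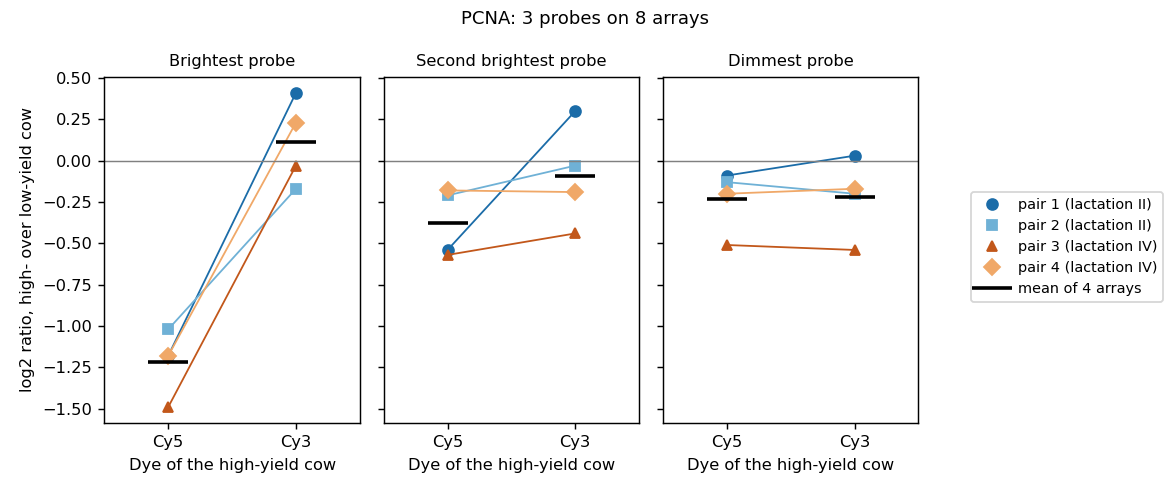
Log2 ratio of the high-yield over the low-yield cow for the 3 PCNA probes on 8 arrays, by the dye that labelled the high-yield cow. Each line joins the 2 arrays of a cow pair, and black bars are means of 4 arrays. The brightest probe runs from a mean of -1.22 with Cy5 to 0.11 with Cy3, while the dimmest runs from -0.23 to -0.22.

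The 6 subunits of the MCM ring differed in their ratio in pair 1. MCM4, one of them, stood at -1.21, 0.14, 0.49 and -0.16 in pairs 1 to 4, with rebuilt levels of 9.35, 9.21, 9.40 and 9.86 in high-yield cows and 10.56, 9.08, 8.91 and 10.02 in low-yield cows. MCM3 stood at -1.07, 0.21, 0.13 and 0.06, with levels of 7.69, 7.40, 7.74 and 8.37 against 8.76, 7.18, 7.61 and 8.31. MCM6 stood at -0.95, 0.17, -0.13 and -0.07, with levels of 7.21, 7.02, 7.26 and 7.83 against 8.16, 6.85, 7.38 and 7.89. In all 3 genes the low-yield cow of pair 1 was the highest of the 8 cows, and among the other cows the yield groups overlapped. The mean over 4 pairs was -0.19 ± 0.73 for MCM4, -0.17 ± 0.61 for MCM3 and -0.24 ± 0.49 for MCM6 (SD, n = 4). Without pair 1 it was 0.15 ± 0.32, 0.14 ± 0.07 and -0.01 ± 0.16 (SD, n = 3), so the negative means of MCM4 and MCM3 rest on that pair. Seen by cow, the tested probes of all 6 subunits were below their mean of the 8 cows in both cows of pair 2 and the low-yield one of pair 3, and above it in the high-yield one of pair 4.

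MCM7 was the replication gene with the highest mean ratio. It stood at -0.56 in pair 1 and at 0.62, 0.52 and 0.46 in pairs 2, 3 and 4, a mean of 0.26 ± 0.55 (SD, n = 4), and at 0.53 ± 0.08 without pair 1. Levels were 11.49, 11.18, 11.34 and 11.52 in high-yield cows and 12.05, 10.56, 10.82 and 11.07 in low-yield cows. Outside pair 1 every high-yield cow was thus above every low-yield cow, and within pair 1 the order turned. Centred on the array median, the mean of MCM7 was -0.04. The tested probes of MCM2 and MCM5 did not set pair 1 apart: MCM2 stood at 0.03, -0.11, 0.27 and -0.29 (mean -0.03 ± 0.23) and MCM5 at -0.06, -0.19, 0.71 and -0.40 (mean 0.01 ± 0.48). MCM2 levels were 7.59, 7.35, 7.57 and 7.80 in high-yield cows and 7.55, 7.46, 7.31 and 8.09 in low-yield cows, with wide overlap. A second kept probe of MCM2 stood at 1.06, -0.05, -0.86 and -0.46 in pairs 1 to 4, so there pair 1 lay far above the others and the low-yield cow of pair 1 was the lowest of the 8. No subunit passed with limma (adjusted p 0.816 to 0.992 for the 6).

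Several of these genes have probes that disagree. MCM4 has 5 kept probes, 4 of them below 0 on average (down to -0.25) and 1 at 0.68, which was above 0 in all pairs. MCM3 has 3 kept probes between -0.17 and 0.06, and 1 of them is placed on chromosome 9 by the file headers while the tested one is on chromosome 23. In pair 1 the tested MCM3 probe stood at -1.07, the one on chromosome 9 at -0.33 and the dimmest kept one at -0.03. MCM5 has 3 kept probes between -0.25 and 0.01. Among the 12 members with several kept probes, 5 had probes of both signs, the other two being AURKB and TOP2A. Both kept probes of MCM2 averaged below 0 (-0.08 and -0.03) but disagreed pair by pair, as given above.

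The means of the other fork proteins were smaller than their SD. GINS2, a subunit of the complex that joins CDC45 to the MCM ring, stood at -0.70 in pair 1 and -0.10, 0.02 and -0.11 in pairs 2 to 4 (mean -0.22 ± 0.32, SD, n = 4; -0.06 ± 0.07 without pair 1). Levels were 6.24, 6.14, 6.42 and 6.73 in high-yield cows and 6.94, 6.24, 6.40 and 6.83 in low-yield cows, the highest again in the low-yield cow of pair 1. POLA1, the catalytic subunit of DNA polymerase alpha, had a mean of -0.12 ± 0.16. RFC4, part of the loader that opens the PCNA ring, was the replication gene furthest above 0 in pair 1: it stood at 0.38 there and at -0.19, -0.25 and -0.27 in pairs 2 to 4, a mean of -0.08 ± 0.31 and of -0.24 ± 0.04 without pair 1.

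Enzymes of DNA precursor supply varied from pair to pair. TYMS, the thymidylate synthase that makes the DNA-specific base, stood at -1.02, -0.36, 0.71 and -0.26 in pairs 1 to 4 (mean -0.23 ± 0.71, SD, n = 4; 0.03 ± 0.59 without pair 1). Its levels were 9.38, 9.05, 9.92 and 9.56 in high-yield cows and 10.40, 9.41, 9.21 and 9.82 in low-yield cows. The low-yield cow of pair 1 was the highest of the 8 and the high-yield cow of pair 3 the second highest. RRM1, the large subunit of ribonucleotide reductase, had a mean of -0.04 ± 0.24, and of 0.07 ± 0.14 without pair 1. RRM2, its small subunit, had a mean of -0.19 ± 0.33. All 3 kept probes of RRM2 were below 0 on average, between -0.25 and -0.13.

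The mitotic genes had a median ratio of -0.05, with 10 of 12 below 0 on average and a median of -0.03, -0.04, -0.05 and -0.15 in pairs 1 to 4. Most of these means were smaller than their own SD. BUB1, CENPF, CCNA2 and TOP2A were tested only through the low-yield cows, which favours a negative sign. Without pair 1 the median was -0.09 and 9 of 12 were below 0, so the median did not rest on pair 1. Without pair 4 it was -0.00, from arrays with the high-yield cow in Cy3 alone 0.01, and under median centring 0.02.

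NUSAP1, which binds and bundles spindle microtubules, was the mitotic gene with the lowest mean. Its ratio was -0.06, -0.44, -0.40 and -0.61 in pairs 1 to 4, a mean of -0.38 ± 0.23 (SD, n = 4), and it was below 0 under each of the 18 alternatives run. Levels were 7.39, 7.39, 7.53 and 7.63 in high-yield cows and 7.46, 7.83, 7.93 and 8.24 in low-yield cows. High-yield cows were close together and low-yield cows spread upwards, with the low-yield cow of pair 1 inside the range of the high-yield cows. With the high-yield cow in Cy5 the mean was -0.69 and with it in Cy3 -0.06, so here too the dye orientations differed. With limma it did not pass (adjusted p = 0.795).

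PLK1, the Polo kinase of mitotic entry and exit, stood at -0.05, -0.07, -0.27 and -0.30 in pairs 1 to 4, a mean of -0.18 ± 0.13 (SD, n = 4). Levels were 9.69, 9.48, 8.97 and 9.57 in high-yield cows and 9.74, 9.54, 9.25 and 9.87 in low-yield cows. The groups overlapped, since the cows of pair 3 were both low and the cows of pair 4 and pair 1 both high. Its mean was -0.35 with the high-yield cow in Cy5 and 0.00 with it in Cy3.

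AURKB, the kinase of the chromosomal passenger complex, was the mitotic gene with the highest mean ratio, set by 1 cow. It stood at -0.07, 0.26, 0.97 and -0.04 in pairs 1 to 4 (mean 0.28 ± 0.49, SD, n = 4), with levels of 7.35, 8.07, 8.79 and 7.51 in high-yield cows and 7.43, 7.81, 7.82 and 7.55 in low-yield cows. The high-yield cow of pair 3 was above all others, and without pair 3 the mean was 0.05. A second AURKB probe had a mean of -0.10. TOP2A, the topoisomerase that untangles replicated DNA, stood at 0.14, -0.08, -0.04 and 0.21 (mean 0.06 ± 0.14), with levels of 6.81, 6.46, 6.10 and 6.92 in high-yield cows and 6.67, 6.54, 6.14 and 6.71 in low-yield cows. Its yield groups overlapped almost fully, and its second kept probe averaged -0.12.

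CCNA2, cyclin A2, stood at 0.41, -0.01, -0.24 and -0.25 in pairs 1 to 4 (mean -0.02 ± 0.31, SD, n = 4). Without pair 1 its mean was -0.16 ± 0.14. Its levels were 6.92, 6.18, 6.29 and 6.14 in high-yield cows and 6.50, 6.19, 6.53 and 6.38 in low-yield cows, with the high-yield cow of pair 1 the highest. CDK1, the kinase that cyclins A and B activate, stood at 0.43, -0.28, -0.06 and -0.47 (mean -0.10 ± 0.39, and -0.27 ± 0.21 without pair 1). CCNB2, cyclin B2, was close to 0 in pairs 1 to 3 (0.04 to 0.05) and at -0.41 in pair 4 (mean -0.07 ± 0.23). The remaining mitotic genes were the centromere protein CENPF (-0.08 ± 0.15), the checkpoint kinases BUB1B (-0.06 ± 0.10) and BUB1 (-0.03 ± 0.15), the Aurora kinase AURKA (-0.02 ± 0.08), and CDC20 (-0.03 ± 0.06), which activates the ubiquitin ligase that ends mitosis. CDC20 was read from a dimmer probe, because its brightest one was above background in only 2 channels of each yield group. No mitotic gene passed with limma (adjusted p 0.795 to 0.985), and 0 had an unadjusted p under 0.05.

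The 4 genes of the G1 phase fell to either side of 0, with a median of 0.00. CCND1, cyclin D1, had the widest spread of all members: it stood at -1.51, 0.28, 0.71 and -0.20 in pairs 1 to 4 (mean -0.18 ± 0.96, SD, n = 4; 0.26 ± 0.45 without pair 1). Levels were 9.59, 9.01, 9.14 and 10.09 in high-yield cows and 11.10, 8.73, 8.44 and 10.29 in low-yield cows. The low-yield cows held both the highest and the lowest values, so the high-yield cows lay inside their range. CDK4, its partner kinase, stood at 0.06, -0.00, -0.28 and -0.30 (mean -0.13 ± 0.19), and all 3 of its kept probes averaged below 0. CDK4 levels were 10.02, 9.84, 9.66 and 9.93 in high-yield cows and 9.96, 9.84, 9.94 and 10.23 in low-yield cows.

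CDK2, the kinase of the G1 to S step, stood at 0.02, 0.29, 0.38 and -0.04 in pairs 1 to 4 (mean 0.16 ± 0.20, SD, n = 4). Its levels were 8.74, 8.65, 8.56 and 8.73 in high-yield cows and 8.72, 8.36, 8.18 and 8.77 in low-yield cows. High-yield cows were nearly alike and low-yield cows spread on both sides of them. CCNE1, cyclin E1, stood at 0.45, 0.40, -0.36 and 0.05 (mean 0.14 ± 0.38, and 0.03 ± 0.38 without pair 1). Its levels were 6.76, 6.93, 6.62 and 6.78 against 6.31, 6.53, 6.99 and 6.73. The median of the 4 genes was -0.30 with the high-yield cow in Cy5 and 0.25 with it in Cy3, and CDK2 averaged -0.14 and 0.46 in these orientations. No G1 gene passed with limma (adjusted p 0.814 to 0.917), and 0 had an unadjusted p under 0.05.

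Over the 29 members, the dye orientations gave the same sign in 60 of 116 combinations of member and pair. That count pools pairs whose arrays agreed to different degrees, and no share over all genes is given beside it. The dye part had a median size of 0.09 for the members and 0.16 for all genes tested, and the ratios themselves had a median size of 0.13 and 0.19.

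No other gene of the same pathways passed the limma test either, though some had larger ratios than any member. Of 42 further replication genes 37 were tested; 25 of them were below 0 on average, the median was -0.07, and 0 passed the limma test, with 0 at an unadjusted p under 0.05. The 3 with the smallest p were GMNN, the geminin that blocks relicensing of origins (-0.53 ± 0.49), POLE2, a subunit of DNA polymerase epsilon (-0.34 ± 0.25), and ORC2, part of the origin recognition complex (-0.29 ± 0.18), each with a limma adjusted p of 0.795. GMNN stood at -1.27 in pair 1 and between -0.34 and -0.23 in the other pairs.

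Of 40 further mitotic genes 26 were tested, 12 of them below 0, with a median of 0.04. Again 0 passed the limma test, and 3 had an unadjusted p under 0.05. They were 3 subunits of condensin, the complex that compacts chromosomes, and they went in different directions: SMC4 stood at -0.38 ± 0.12, NCAPG at 1.04 ± 0.88 and NCAPH at 0.95 ± 0.89, each with the same sign in 4 of 4 pairs. Of 34 genes that control the cycle 27 were tested, 17 of them below 0, with a median of -0.05, and 0 passed the limma test. MYC, a transcription factor that drives growth (-0.74 ± 0.50), TFDP1, the partner of the E2F factors (-0.51 ± 0.24), and RBL2, a relative of the retinoblastoma protein (-0.34 ± 0.26), had the smallest p. MYC and TFDP1 were the 2 genes of that list with an unadjusted p under 0.05. The limma adjusted p was 0.795 for each of these 6 genes.

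Whether the yield ratio differed between lactation IV and lactation II was the next comparison. Lactation II pairs may have shared a slide, and so may lactation IV pairs, so a difference between lactations cannot be told apart from one between slides. None of the 29 members passed the limma test of the difference (adjusted p 0.623 to 0.99), where 0 of 12690 genes (0%) did, and 0 members had an unadjusted p under 0.05, beside 1003 of all genes (7.9%). Within lactation II alone limma called 0 members and 0 of all genes (0%), with 0 members and 700 genes at an unadjusted p under 0.05. Within lactation IV alone it also called 0 members and 0 of all genes (0%), with 1 member, PCNA (-0.62 ± 0.21, SE), and 1013 genes at that level. PCNA stood at -0.49 ± 0.21 (SE) within lactation II. Pairs 1 and 2 of one sign with pairs 3 and 4 of the other were found for 1 member, RRM1 (-0.36 and -0.04, then 0.23 and 0.02), beside 2029 of all genes (16%).

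The members closest to a difference were TYMS, CCNE1, CCNA2 and MCM4. As ratio in lactation IV minus ratio in lactation II, TYMS was at 0.91 ± 0.48 (SE) and MCM4 at 0.70 ± 0.57. CCNE1 was at -0.59 ± 0.31 and CCNA2 at -0.45 ± 0.31 (limma adjusted p 0.623 to 0.705 for these genes). These values compare yield ratios and not levels between the lactations. Without pair 1 the difference was 0.03 for MCM4 and 0.58 for TYMS, and over the pairs left out in turn it ran from 0.03 to 1.38 and from 0.43 to 1.40. The values of CCNE1 and CCNA2 depended on the background correction: they were -1.59 and -2.07 with the scanner's processed signals and -1.47 and -2.13 with an offset of 0. With the saddle-point fit CCNE1 was at -0.33, with the mean of its kept probes CCNA2 was at -0.26, and without pair 1 CCNA2 was at -0.24. The median difference was 0.29 for replication genes, -0.13 for mitotic genes, -0.15 for G1 genes and 0.03 for all genes tested. For replication genes it was 0.03 without pair 1.

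Seen by cow, 22 of 29 members were highest in 1 of 2 animals, the low-yield cows of pairs 1 and 4, beside 3862 of all genes (30.4%). These 2 cows are named because they held the most members, a choice that widens the gap to all genes. The low-yield cow of pair 4 had the highest level of the 8 cows for 13 of 29 members (44.8%), beside 906 of all genes (7.14%). These were 7 of 12 mitotic genes (among them NUSAP1, PLK1, CDK1 and CCNB2), 4 of 13 replication genes (PCNA, MCM2, MCM5 and RRM2) and 2 of 4 G1 genes (CDK2 and CDK4), and it had the lowest level for 0 members. Relative to the mean of the 8 cows, its median was 0.23 for mitotic genes, 0.41 for replication genes and -0.00 for all genes tested. Among mitotic genes above background in all 16 channels, NUSAP1 was 0.57, CDK1 0.46 and PLK1 0.36 above the mean of the 8 cows there. AURKB, also in all 16 channels, was at -0.24. The brightest probes of BIRC5, CCNB1, KIF11, TTK and CDC6, too dim to be tested, were also highest in that cow. Whether dim signals in this cow reflect their genes was not tested, and the share of all genes was not matched for brightness. Of the further genes of these pathways, 4 of 37 replication genes and 7 of 26 mitotic genes were highest in that cow.

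The low-yield cow of pair 1 was highest for 9 of 29 members (31%), beside 2956 of all genes (23.3%), a share close to that background. By role, it was highest for 8 of 13 replication genes (MCM3, MCM4, MCM6, MCM7, TYMS, GINS2, POLA1 and RRM1) and for CCND1, and for 0 of 12 mitotic genes. Of the 37 further replication genes 12 were highest and 5 lowest there, and of the 26 further mitotic genes 3 were highest and 7 lowest. The difference between the roles was not tested. Its median relative to the 8 cows was 0.34 for replication genes and -0.07 for mitotic genes. Rebuilt levels of replication genes were low in pair 2, where 0 of 13 in the high-yield cow and 2 of 13 in the low-yield cow were above the mean of the 8 cows. In the high-yield cow of pair 4, 10 of 13 were above it. The cows of a pair share their arrays, so a shift common to both cannot be told apart from one of the arrays.

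**Figure D3:**
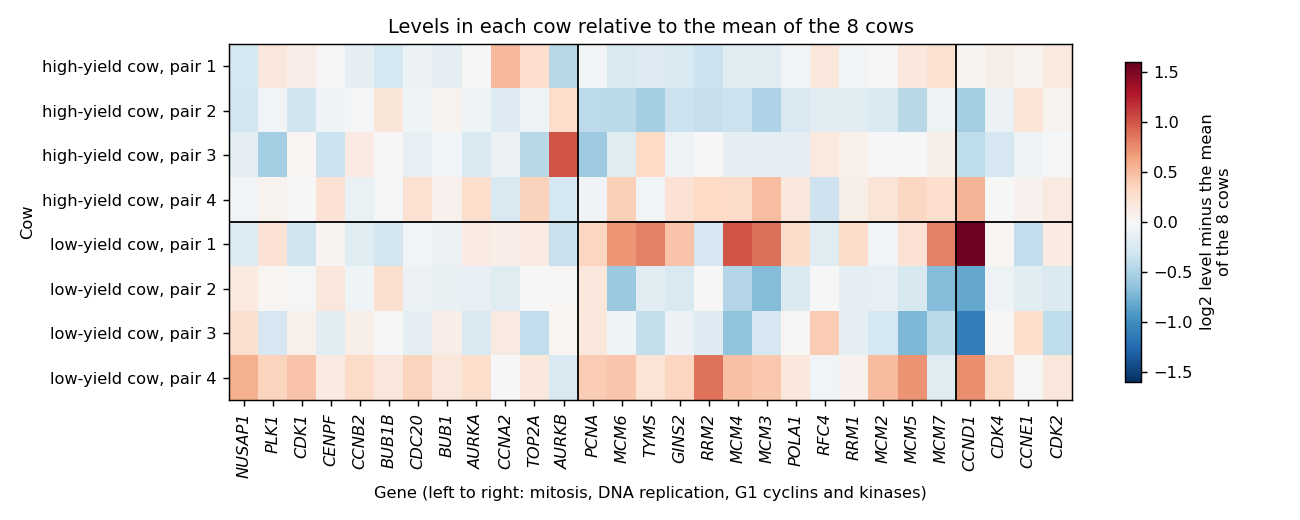
Rebuilt log2 level of each tested gene (columns) in each cow (rows) minus the mean of the 8 cows, red above and blue below it. The upper 4 rows are high-yield cows. The low-yield cow of pair 1 is red across most replication genes and CCND1 but not across mitotic genes. The low-yield cow of pair 4 is red across most genes of both groups, though not for AURKB, CCNA2, MCM7 and RFC4.

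**Figure D4:**
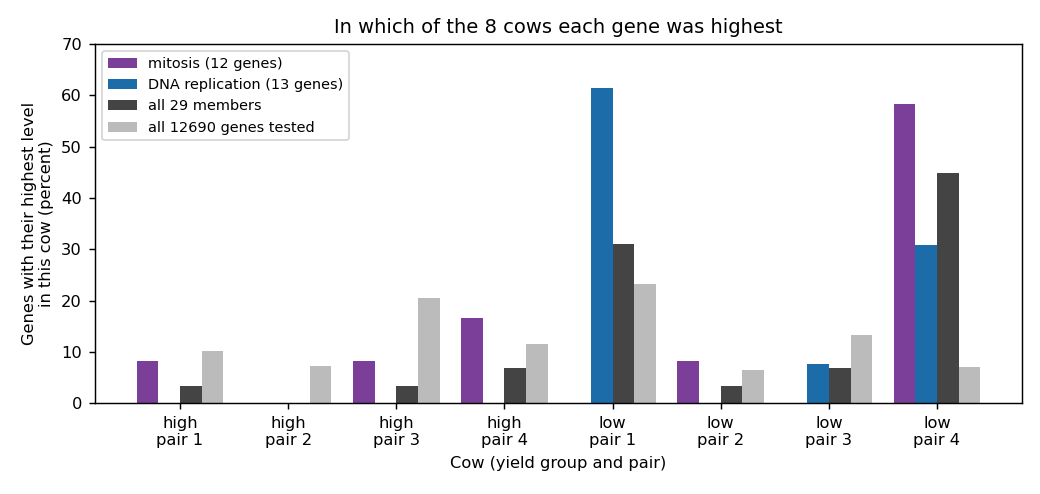
Percent of genes (vertical axis) whose highest level among the 8 cows lay in each cow (horizontal axis), for mitotic genes, replication genes, all 29 members and all 12690 genes tested. The low-yield cow of pair 4 holds 58.3% of the mitotic genes against 7.14% of all genes, and the low-yield cow of pair 1 holds 61.5% of the replication genes and 0% of the mitotic genes.

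Cell type markers also differed in these cows. In the low-yield cow of pair 1, beside the milk protein and keratin lists above, 6 of 12 genes of T and NK cells were at their highest (log2 summed level 13.60 against 12.46 to 13.72 in the other cows), and 3 of 6 myoepithelial genes were. Endothelial genes were at their lowest there in 5 of 6 cases, erythroid genes in 4 of 5, B and plasma cell genes in 4 of 6 and macrophage genes in 4 of 7. Beside these counts, 3377 of all 12690 genes tested were at their lowest in that cow and 2956 at their highest. Summed levels there were 13.28 for endothelium (13.18 to 14.43 in the other cows) and 8.79 for erythroid genes (9.42 to 12.66). They were 13.32 for B and plasma cells (12.94 to 13.45) and 12.98 for macrophages (12.69 to 13.81). Fibroblasts stood at 14.73 (14.13 to 14.72), adipocytes at 13.24 (14.28 to 15.12) and neutrophils at 11.67 (11.72 to 12.91). In the low-yield cow of pair 4 the summed level was the highest of the 8 cows for macrophages (13.81 against 12.69 to 13.73) and for B and plasma cells (13.45 against 12.94 to 13.32), with 1 of 7 and 1 of 6 genes at their own highest there. T and NK cell genes were at 13.26 there, with 2 of 12 at their highest. By yield group, the summed level of T and NK genes ran from 12.46 to 13.72 in high-yield and from 12.57 to 13.60 in low-yield cows. Of 5 erythroid genes tested, 4 were above 0 in 4 of 4 pairs, beside 9.62% of all genes, and the median ratio was 0.93. Their summed level ran from 9.72 to 12.66 in high-yield and from 8.79 to 9.74 in low-yield cows. Among them, HBB was above background in 6 channels of high-yield and 3 of low-yield cows, and HBM in 8 and 3. HBB and HBM were thus tested only through the group where they were higher, which favours their sign, and the median is the ratio of HBB. HBA, the alpha chain of haemoglobin, stood at 2.15 ± 0.98 (SD, n = 4; limma adjusted p = 0.795). The part of these cell types in the levels of the cell cycle genes was not tested.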

How the data were processed

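Mammary gland RNA of 4 high-yield and 4 low-yield cows (n = 4 pairs) was measured on 8 Agilent arrays, using 1000 ng of total RNA in each dye, per the labels' protocols. The deposited scanner files hold mean spot and median background intensity (per the file headers, from version 10.10.1.1 of Feature Extraction), processed intensities, and a log10 ratio of Cy5 over Cy3. The authors also deposited a table of log2 values. Set against the scanner values, each of its columns was a log2 ratio of high over low yield centred near 0 (medians -0.0362 to 0.0265), with 2 columns strongly shrunken (slopes 0.101 and 0.0899, the others 0.646 to 0.844). How that table was made is not given in the sources used here.

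Intensities were corrected with limma 3.58.1 (R 4.3.3): normexp with noise from the 153 negative control spots and an offset of 50, then loess within each array with control spots at weight 0. Outlier spots were left out, and 0 spots were saturated. Each ratio was expressed as high over low, and the dye-swapped arrays of a pair averaged. A probe was kept if it exceeded background in 6 or more of the 8 channels of a yield group, which kept 29867 of 43653 probes, and a gene was represented by its brightest kept probe. Names came from the files and from a table of assembly ARS-UCD2.0, used for names alone. The mean of 4 pairs was tested against 0, and lactation IV against II, by two-sided moderated tests (lmFit, then eBayes, in limma), and Benjamini-Hochberg adjusted p-values over all genes were held against 0.05. The fits were tested on simulated data. The number of arrays limits the precision, and p-values measure the spread between these cow pairs.

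Members and gene lists were chosen with earlier results of these data known. Every member is named. Values of all pairs and cows are given for CCND1, CDK4, PCNA, MCM2 and TOP2A, for the 6 members with the smallest p for yield, the 6 with the largest range over pairs and the 4 with the smallest p for the difference between lactations. From each pathway list the 3 genes with the smallest p are named. Alternatives were another background fit or none, the scanner's processed signals, another offset, median centring, scaling between arrays, the authors' values and other filters. Further ones were the mean of a gene's probes, 1 dye orientation, leaving out each pair, cows unpaired, and lactation (with any shared slide) as a block.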

Additional observations from a re-analysis of the deposited data

Results flagged for a closer look

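In 96 sets of 4 values (the pair ratios and the levels of each yield group, for each of the 29 tested members and for the medians of the 3 role groups), 6 held 1 value far from the other 3 by Dixon's criterion, which chance does in about 1 of 20 sets. Pair 1 was the value apart in 4 of them: GINS2 at -0.70 (others -0.11 to 0.02), MCM3 at -1.07 (others 0.06 to 0.21), MCM7 at -0.56 (others 0.46 to 0.62) and RFC4 at 0.38 (others -0.27 to -0.19). These are log2 ratios of the high-yield over the low-yield cow, and RFC4 departed in the opposite direction from the other three. CCNB2 stood at -0.41 in pair 4 (others 0.04 to 0.05). The level of CDC20 was 6.73 in the high-yield cow of pair 4 (6.35 to 6.41 in the other high-yield cows).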

How the results depend on the processing

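No member passed the limma test of yield or of the difference between lactations under any alternative run, and no gene passed the yield test in any of the 18. The number of genes called for the difference between lactations was 0, but 7 with median centring and 293 without pair 2 (0 to 293 over the pairs left out in turn). Within lactation II it was 119 without pair 2 (0 to 119), and within lactation IV it was 2 with median centring. Without pair 2, lactation II is pair 1 alone, assumed to vary like the pairs of lactation IV, so the 293 and 119 rest on 1 pair. The cause of the other changes was not tested. Members with a mean below 0 numbered 23, but 12 of the 17 members left when a probe had to be above background in all 16 channels, and 14 on the arrays with high yield in Cy3. Leaving out each pair in turn gave 17 to 22. With cows unpaired (no replicate block) 0 genes were called and 23 members were below 0. No further paired analysis was possible because each ratio already holds its cow pair.

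The median ratio of mitotic genes (-0.05) was -0.15 with the scanner's processed signals, -0.11 with an offset of 0, 0.02 with median centring and -0.14 with all 16 channels, and -0.09 to -0.00 over the pairs left out. Their median difference between lactations (-0.13) was -0.24 with all 16 channels, -0.18 with no filter and -0.17 to -0.05 over the pairs left out. For replication genes that difference (0.29) was 0.58 with median centring and 0.03 to 0.48 over the pairs left out. The G1 median (0.00) was -0.30 with median centring, -0.30 from the Cy5 orientation alone and 0.25 from the Cy3 orientation alone, and its difference between lactations (-0.15) was 0.18, 0.00 and -0.30 under the same settings. The replication median stayed below 0 under the 18 alternatives, from -0.37 with median centring to -0.01 without pair 1. Signal over background limits the mitotic genes, of which 4 of 16 were above background in all 16 channels.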
